A study of Mus musculus with 4 samples.

Results

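Vehicle-treated primary mouse microglia, the control arm of an experiment on the green tea flavanol EGCG, are described here from 2 of the 4 RNA-seq libraries of the study. The members are the 2 libraries whose labels give Vehicle as the treatment, and only their counts were used, so nothing below compares them with EGCG. The cells came from the cortex of male pups of the outbred CD1 strain in their first days of life, were expanded in mixed glia cultures to which GM-CSF was added, and were freed of the astrocyte layer with trypsin. They were then held in serum-free medium with IL-34, TGFβ2, a low dose of GM-CSF, insulin, transferrin, selenium, albumin and cholesterol, and received the DMSO vehicle for 24 h. Poly-A RNA was sequenced from strand-specific libraries. The labels call the libraries biological replicates 1 and 2, and how many pups went into each is not given in the sources used here. What limits these cells as a model is that they were grown from newborn cortex in culture for weeks beside astrocytes and under added growth factors.

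Microglia are the resident macrophages of the brain. They depend on the receptor encoded by Csf1r, whose ligands are CSF1 and IL-34, and TGFβ signalling is known to maintain the gene programme of microglia in the healthy brain. They clear debris and synapses through phagocytic receptors and lysosomal proteases, and they release complement, chemokines and cytokines. GM-CSF is known to drive proliferation of microglia in culture.

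The libraries held 33805071 counts (Vehicle replicate 1) and 36307930 counts (Vehicle replicate 2), and 98.0% of the counts on genes fell on protein-coding genes in each. Counts were divided by the gene length in the file and scaled to a total of 1000000 in each library, which gives TPM, the transcripts of a gene per 1000000 transcripts, a level that can be compared between genes. A count of 3, the most that was treated as not detectable, corresponded to 0.245 and 0.242 TPM for a gene of 1000 bases, and covers counting error only. Of 22046 protein-coding genes, 10583 reached 1 TPM in both libraries, 6908 reached 10 TPM (31.3%), 1037 reached 100 TPM (4.70%) and 63 reached 1000 TPM. The order of genes was shared to a large extent, with a Spearman rho of 0.945 across 11043 genes at a mean of 1 TPM or more, which share their lengths and are not independent replicates. The libraries nevertheless differed at many genes. After TMM normalisation, 1430 of the 11043 genes (12.9%) differed by more than 2 times, of which 822 were higher in replicate 1 (7.44%) and 608 were higher in replicate 2 (5.51%). Among genes at a mean of 10 TPM or more, 8.34% did, and with no filter on low values 18.0% did. With 1 group of 2 libraries there was no test, so every value below is a description. A difference between the libraries is the spread between 2 replicates with 1 library each, in which biological and technical sources cannot be told apart.

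**Figure D1:**
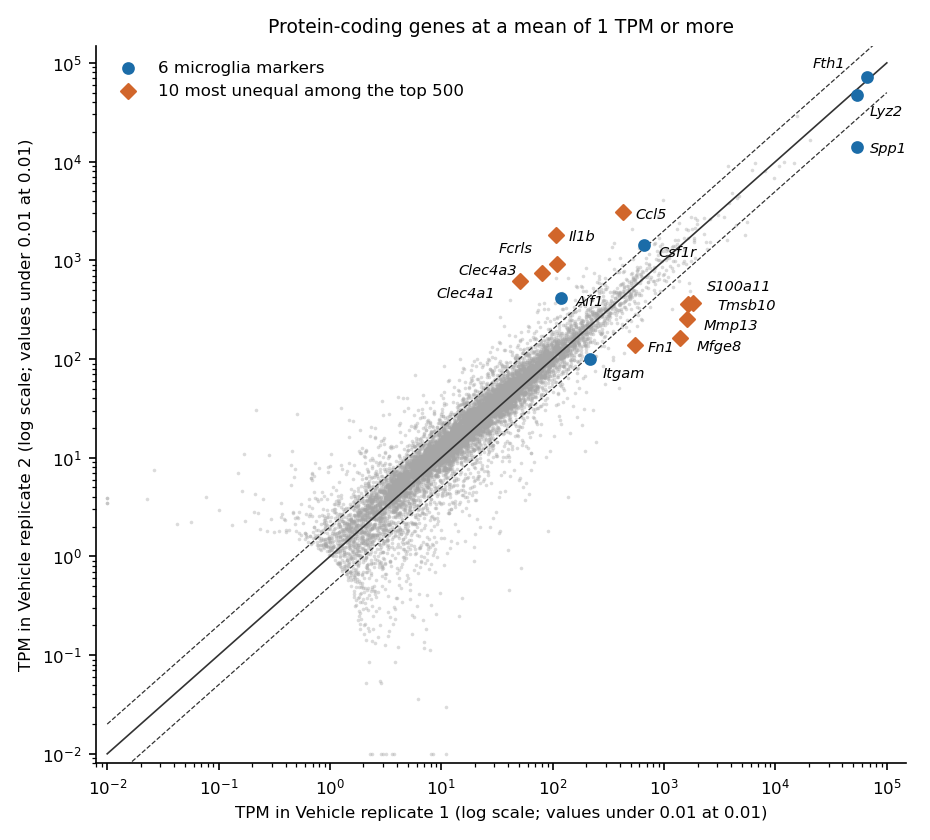
TPM of each protein-coding gene at a mean of 1 TPM or more in Vehicle replicate 1 (horizontal, log scale) and Vehicle replicate 2 (vertical, log scale), with equal TPM as a solid line and a 2-fold difference as dashed lines. Most of the 11043 genes lie between the dashed lines, Fth1 and Lyz2 lie near the solid line, and Il1b (107.9 and 1803 TPM) and Mfge8 (1386 and 161.6 TPM) lie far outside on opposite sides.

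A small number of transcripts dominated the RNA of these cells. The 3 most abundant protein-coding genes held 15.4% ± 2.85 of all TPM (SD, n = 2 libraries), the leading 10 held 24.4% ± 2.80, the leading 100 held 41.1% ± 2.30 and the leading 1000 held 66.2% ± 0.871. With genes of every class included, the 10 most abundant held 26.1% ± 4.33. Without division by length, in counts per 1000000 counts (CPM), this last share was 13.5%. Of the leading 25 genes, 19 were among the leading 25 of both libraries, and of the leading 500, 421 were.

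Fth1, the heavy chain of the iron-storage protein ferritin, led both libraries at 65951 and 72310 TPM in replicates 1 and 2. Ftl1, its light chain, stood at 20246 and 16444 TPM, so the ferritin chains together held 8.62% and 8.88% of all TPM, and this share differed little between the libraries. Lyz2, which encodes the lysozyme that digests bacterial cell walls, had rank 3 in replicate 1 at 53893 TPM and rank 2 in replicate 2 at 47371 TPM. Its near-identical copy Lyz1 had 1269 and 554 counts beside 869077 and 773964 for Lyz2, and how reads that match both were assigned is not given in the sources used here. Spp1, which encodes the secreted phosphoprotein osteopontin, stood at 54365 TPM in replicate 1 and 14188 TPM in replicate 2. It thus had rank 2 in replicate 1 and rank 5 in replicate 2, and was 4.15 times higher in replicate 1 after TMM. Apoe, the lipid carrier, went the other way with 15544 and 28817 TPM, 1.71 times higher in replicate 2.

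Lysosomal proteins filled much of the next rows of the order. Ctss, a cysteine protease of antigen processing, stood at 14729 and 9589 TPM, and Ctsd, the aspartic protease of the lysosome, at 9676 and 6835 TPM. Psap, the precursor of the saposins that activate sphingolipid breakdown, stood at 10795 and 8936 TPM. Ctsb (4743 and 4524 TPM), Ctsz (3793 and 3848 TPM) and Ctsl (3686 and 1591 TPM) were also among the leading 25, so that 5 of the 23 cathepsin genes were. The cathepsin genes summed to 3.81% and 2.82% of all TPM. Of the 23, 11 reached 10 TPM in both libraries (47.8%, against 31.3% of all protein-coding genes). Another 11 had no more than 3 counts in either, as had 8230 of the 22046 protein-coding genes. Some cathepsins were thus very abundant, while others were not detectable at this depth.

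The rest of the leading 25 held general and immune genes. B2m, the light chain of MHC class I, stood at 11961 and 9855 TPM, and H2-D1, a heavy chain that shares sequence with other MHC class I genes and is therefore uncertain, at 4551 and 4312 TPM. Tmsb4x, which binds actin monomers, stood at 6492 and 9771 TPM, and the translation factor Eef1a1 at 6193 and 8229 TPM. The signalling adaptor Tyrobp, through which TREM2 acts, stood at 4108 and 4830 TPM. Replicate 1 was the higher library for Gpnmb, a transmembrane glycoprotein of lysosome-rich macrophages (5555 and 2467 TPM), for the macrophage elastase Mmp12 (5381 and 1806 TPM) and for the peroxidase Prdx1 (4427 and 2268 TPM). Replicate 2 was the higher library for C1qa (3716 and 8956 TPM) and C1qb (980.9 and 4075 TPM), chains of the complement starter C1q. The ribosomal protein Rplp1 (3420 and 2743 TPM) and the protease inhibitor Cst3 (3046 and 2897 TPM) differed less. Mitochondrial transcripts were also close, with mt-Co1 at 8062 and 8085 TPM and mt-Nd1 at 2599 and 2607 TPM.

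**Figure D2:**
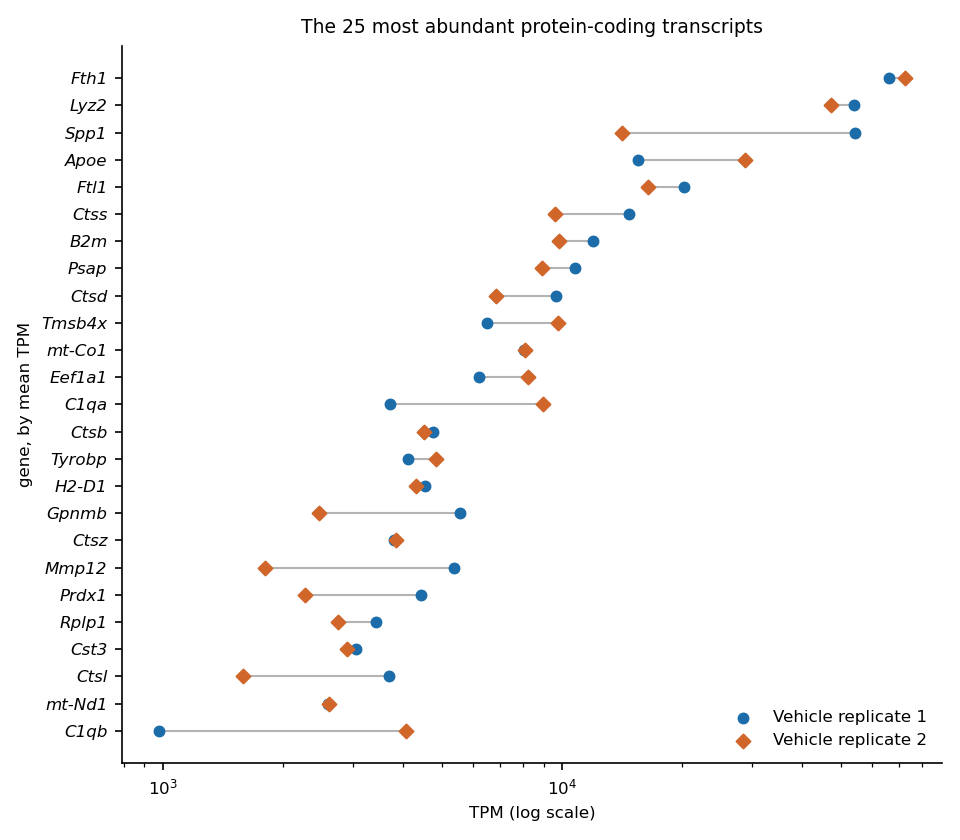
TPM (log scale) of the 25 protein-coding genes with the highest mean TPM, 1 row per gene, with a circle for Vehicle replicate 1, a diamond for Vehicle replicate 2 and a grey line between them. Fth1 leads in both libraries, the symbols of mt-Co1, mt-Nd1 and Ctsz nearly coincide, and those of Spp1 (54365 and 14188 TPM), C1qb, Mmp12, C1qa, Ctsl and Gpnmb are the farthest apart.

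The promoters of the leading genes were searched on both strands for the letters GAGGAAGT, a core bound by PU.1, the ETS factor of macrophages encoded by Spi1, and for TCACGTGA, the core of the CLEAR element bound by the lysosomal factors TFEB, TFE3 and MITF. The RefSeq windows (GRCm38.p6) run from 250 bases before the annotated start to 50 bases after it, and 16495 protein-coding genes had one. The PU.1 letters stood in 3.14% of all windows, in 5.40% of the 815 windows of genes at 100 TPM or more in both libraries, and in 6 of the 66 windows of the 100 most abundant genes (9.09%). They stood in 3 of the 19 windows of cathepsins (15.8%), 2 of 21 of the pan-macrophage list (9.52%) and 2 of 24 of the homeostatic microglia list (8.33%). For the markers of other cells the count was 5 of 66 (7.58%), and for cytosolic ribosomal proteins 3 of 64 (4.69%). For the disease-associated microglia list it was 1 of 24 (4.17%). These counts are too small to order the lists by share. For the CLEAR letters the shares in all windows, at 100 TPM or more and in the leading 100 were 1.26%, 2.33% and 3.03%. These are descriptions of letters and not of bound sites. Among the 25 leading genes, 4 windows held a match, and these 4 are shown from 250 bases before the start to 20 after it, 5′ to 3′ on the gene's strand, with the matched letters in capitals. In Spp1 (chr5:104434861-104435130, plus strand) the PU.1 letters begin 113 bases before the start, in Ctss (chr3:95526536-95526805, plus strand) and Mmp12 (chr9:7344147-7344416, plus strand) their reverse complement begins 2 and 88 bases before it, and in Ctsd (chr7:142387808-142388077, minus strand) the CLEAR letters begin 99 bases before it.
Spp1: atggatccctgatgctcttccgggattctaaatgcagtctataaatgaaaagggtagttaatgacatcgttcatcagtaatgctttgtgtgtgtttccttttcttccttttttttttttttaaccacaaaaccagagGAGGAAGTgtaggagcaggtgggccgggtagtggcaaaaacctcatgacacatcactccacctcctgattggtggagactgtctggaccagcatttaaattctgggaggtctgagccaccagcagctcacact
Ctss: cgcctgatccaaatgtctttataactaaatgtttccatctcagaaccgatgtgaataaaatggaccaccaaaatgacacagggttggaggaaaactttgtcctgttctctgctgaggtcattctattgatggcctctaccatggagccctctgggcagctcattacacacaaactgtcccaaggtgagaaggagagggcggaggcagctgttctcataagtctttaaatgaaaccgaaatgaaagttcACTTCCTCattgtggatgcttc
Mmp12: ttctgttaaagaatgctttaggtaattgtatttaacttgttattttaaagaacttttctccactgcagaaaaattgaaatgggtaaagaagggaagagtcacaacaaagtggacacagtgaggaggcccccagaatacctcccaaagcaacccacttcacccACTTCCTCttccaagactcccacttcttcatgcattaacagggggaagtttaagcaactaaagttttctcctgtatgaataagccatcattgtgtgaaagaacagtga
Ctsd: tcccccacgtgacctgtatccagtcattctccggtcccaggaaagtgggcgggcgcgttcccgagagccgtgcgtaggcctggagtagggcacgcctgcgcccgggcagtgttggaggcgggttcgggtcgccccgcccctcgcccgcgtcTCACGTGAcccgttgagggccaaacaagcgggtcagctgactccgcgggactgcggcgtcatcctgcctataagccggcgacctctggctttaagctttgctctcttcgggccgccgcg
The windows of the other leading genes that had one, and those of Itgam and Aif1, held neither string of letters.

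The 6 genes that mark these cells were detected in both libraries, at levels from 99.4 to 72310 TPM. Fth1, Lyz2 and Spp1 lie on chromosome 19 from 9982703 to 9985092, on chromosome 10 from 117277331 to 117282321 and on chromosome 5 from 104435118 to 104441050 of GRCm38, and are general products of macrophages. Csf1r, the receptor on which microglia depend, lies on chromosome 18 from 61105572 to 61132149 and stood at 654.9 TPM in replicate 1 and 1434 TPM in replicate 2, rank 86 by the mean. Aif1, which encodes the calcium-binding protein IBA1 used to stain microglia, lies on chromosome 17 from 35170991 to 35176068 and stood at 119.1 and 413.6 TPM. Itgam, which encodes the integrin CD11b, lies on chromosome 7 from 128062640 to 128118491 and stood at 215.3 and 99.4 TPM. Aif1 was thus 3.21 times higher in replicate 2 and Itgam 2.35 times higher in replicate 1, which changes their order, with Itgam above Aif1 in replicate 1 and below it in replicate 2. Only Fth1 (1.01 times) and Lyz2 (1.23 times) of the 6 differed by less than 2 times.

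Genes of the macrophage lineage were expressed throughout. All 30 genes of a pan-macrophage list reached 10 TPM in both libraries, against 31.3% of all protein-coding genes, and 26 of them reached 100 TPM, against 4.70%. Their median was 935.3 TPM, against 1.02 TPM over all protein-coding genes, and they summed to 9.30% and 8.68% of all TPM. After Lyz2, Ctss and Tyrobp, the highest were Lamp1 (1957 and 2533 TPM), a membrane protein of the lysosome, and Mpeg1 (1975 and 2337 TPM), which encodes the pore-forming perforin-2. The lowest were Cd48 (72.5 and 138.2 TPM) and Cd33 (99.8 and 46.3 TPM), both surface receptors of the immunoglobulin family, which were still above most genes. Ptprc, the leukocyte phosphatase CD45, stood at 111.9 and 137.7 TPM. Adgre1, which encodes the macrophage antigen F4/80, was among the less even members at 511.2 and 2098 TPM.

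Most genes of the homeostatic microglia list were expressed, over a far wider range. Of 36 genes, 29 reached 10 TPM in both libraries (80.6%, against 31.3% of all protein-coding genes), 15 reached 100 TPM (against 4.70%) and the median was 95.3 TPM. Beside C1qa, Tyrobp, Cst3 and C1qb, the lysosomal protease gene Lgmn stood at 2273 and 2681 TPM. Fcrls, an Fc receptor-like gene typical of mouse microglia, stood at 108.3 and 925.8 TPM, 7.89 times higher in replicate 2, and Cx3cr1, the fractalkine receptor, at 158.5 and 396.7 TPM. The genes most often used to set microglia apart from other macrophages were much lower. P2ry12, a purinergic receptor of microglial processes, stood at 16.8 and 27.9 TPM, Tmem119, a membrane protein of microglia, at 40.6 and 14.2 TPM, and Sall1, a zinc-finger factor of microglial identity, at 6.45 and 25.3 TPM. Their ranks by mean TPM were 4964, 4321 and 6066, so all 3 were present but were low within these transcriptomes. At the lower end, Siglech had 0 and 3 counts and the fructose transporter gene Slc2a5 had 2 and 1, while the crystallin gene Crybb1 and the uroplakin gene Upk1b had none. These 4 genes were not detectable at this depth, where 3 counts equal 0.0889 and 0.0827 CPM. Against the background of 7.44% and 5.51%, 4 of 32 compared genes were more than 2 times higher in replicate 1 and 10 were more than 2 times higher in replicate 2, and the median log2 ratio of replicate 2 over replicate 1 was 0.38.

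Genes that rise in disease-associated microglia, a state described around amyloid plaques and in development and ageing, had the highest median of the 28 lists. The 31 genes of this list all reached 10 TPM in both libraries, against 31.3% of all protein-coding genes, and 26 reached 100 TPM, against 4.70%. They included 11 of the 25 leading genes and summed to 24.8% and 20.9% of all TPM, most of which was Fth1, Lyz2, Spp1 and Apoe. The median was 985.7 TPM, beside 935.3 TPM for the pan-macrophage list. Beyond the genes already given, Lgals3, a galectin of damaged lysosomes, stood at 2593 and 1541 TPM, the tetraspanin gene Cd9 at 1351 and 620.2 TPM, and the lipoprotein lipase gene Lpl at 953.5 and 987.2 TPM. Trem2, the lipid-sensing receptor on which this state depends, stood at 372.7 and 256.4 TPM, and Itgax, the integrin CD11c, at 390.7 and 349.6 TPM. The lowest were the adhesion gene Cadm1 (84.4 and 74.4 TPM) and the protease inhibitor gene Serpine2 (18.0 and 18.6 TPM). Clec7a, the β-glucan receptor dectin-1 and a member of the list, is classed in the file as a polymorphic pseudogene and is therefore outside the protein-coding ranks, and it stood at 2246 and 943.0 TPM. Of 31 compared genes, 6 were more than 2 times higher in replicate 1 and 1, Cst7, a cystatin, was more than 2 times higher in replicate 2 (401.0 and 1051 TPM), against 7.44% and 5.51% of all compared genes. This list and the homeostatic list share 2 genes, Tyrobp and Trem2. With the pan-macrophage list it shares 4, which are Lyz2, Tyrobp, Cd68 and Cd52.

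Genes of border-associated macrophages, which live in the meninges and around vessels, were split. Of 17 genes, 8 reached 10 TPM in both libraries (47.1%, against 31.3% of all protein-coding genes). Clec4n, the receptor dectin-2, stood at 1300 and 2083 TPM, Pf4, a platelet-type chemokine, at 1677 and 583.4 TPM, Ms4a7 at 131.0 and 329.2 TPM and Mrc1, the mannose receptor CD206, at 89.7 and 163.9 TPM. The scavenger receptor gene Cd163 had 3 and 0 counts, the lectin gene Cd209f had 0 and 15, and the hyaluronan receptor gene Lyve1 stood at 0.475 and 0.166 TPM. The list thus held abundant members beside members at the limit of detection in the same libraries. Of the MHC class II and dendritic list, 6 of 15 genes reached 10 TPM in both libraries (40.0%, against 31.3% of all protein-coding genes). Cd74, the invariant chain, stood at 858.6 and 1252 TPM, whereas the class II chains H2-Aa (40.3 and 10.1 TPM), H2-Ab1 (39.9 and 10.7 TPM) and H2-Eb1 (36.7 and 7.14 TPM) were far lower, and each was higher in replicate 1. Their regulator Ciita stood at 0.659 and 0.177 TPM. Flt3 and Cd209a, genes of dendritic cells, had no counts, and Xcr1 had 0 and 4.

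Transcripts of other cell types were rare. The 94 markers of astrocytes, oligodendrocytes, neurons, stromal cells, endothelium and other leukocytes summed to 0.0564% of all TPM in replicate 1 and 0.0255% in replicate 2, or 0.0966% as the mean on the CPM scale. In bulk RNA, fewer cells of a type and less RNA per cell cannot be told apart. The 15 astrocyte markers summed to 14.8 and 9.53 TPM, with Gfap, the intermediate filament of astrocytes, at 12 and 22 counts, Aqp4, their water channel, at 20 and 5, and Gjb6 and Ntsr2 at 0. The 15 neuronal markers summed to 10.4 and 3.94 TPM and ranged from Snap25, a synaptic fusion protein (6.80 and 0.225 TPM), to Syt1, a synaptic vesicle protein, at 0 counts. In the oligodendrocyte list Cnp (21.2 and 26.7 TPM) and Mbp (22.1 and 24.9 TPM) were the 2 genes above 10 TPM in both libraries, while Sox10 had 0 and 2 counts and Mog had none. Stromal markers were the highest of these lists. They summed to 270.6 and 132.2 TPM, with the matrix gene Postn at 77.8 and 58.1 TPM, Col1a1 at 49.3 and 16.5 TPM, Col3a1 at 36.7 and 18.0 TPM and the smooth muscle gene Tagln at 28.1 and 5.59 TPM.

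These markers were not evenly spread over the libraries. Of 35 compared markers of other cells, 22 were more than 2 times higher in replicate 1 and 1 was more than 2 times higher in replicate 2, where 7.44% and 5.51% of all compared genes were, and 10 of 14 compared stromal markers were more than 2 times higher in replicate 1. The exception was Pecam1, an adhesion molecule of endothelium and of some leukocytes, with 2 counts in replicate 1 and 580 in replicate 2. Cldn5 and Emcn, which define endothelium more strictly, had no counts in either library. Ly6c1 and Ly6c2, surface antigens that are near-identical copies of each other and are found on endothelium and monocytes, were at 1071 and 1319 counts in replicate 1 and 16 and 39 in replicate 2. Ccr2, the receptor of infiltrating monocytes, stood at 1.35 and 1.06 TPM and did not follow them. S100a8, a chain of the neutrophil protein calprotectin, had 366 and 105 counts, while S100a9, the other chain, had none, and neither did Mpo, Elane or Ly6g. The part of other cells in the differences between the libraries was not tested.

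Genes of cell division reached 10 TPM about as often as other genes. Of 20 cell division genes, 5 reached 10 TPM in both libraries (25%, against 31.3% of all protein-coding genes) and 2 reached 100 TPM (against 4.70%), and the median was 3.65 TPM, against 1.02 TPM over all protein-coding genes. The 5 were Tubb5, Pcna, Mcm3, Hmgb2 and Mcm6, whose products also serve outside division or in DNA replication and repair. Mki67, the antigen of cycling cells, stood at 5.37 and 2.23 TPM, the topoisomerase gene Top2a at 2.82 and 1.08 TPM and the mitotic kinase gene Bub1 at 0.787 and 0.222 TPM. All 3 were higher in replicate 1, in which 4 of 16 compared genes were more than 2 times higher and none was in replicate 2, against 7.44% and 5.51% of all compared genes.

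**Figure D3:**
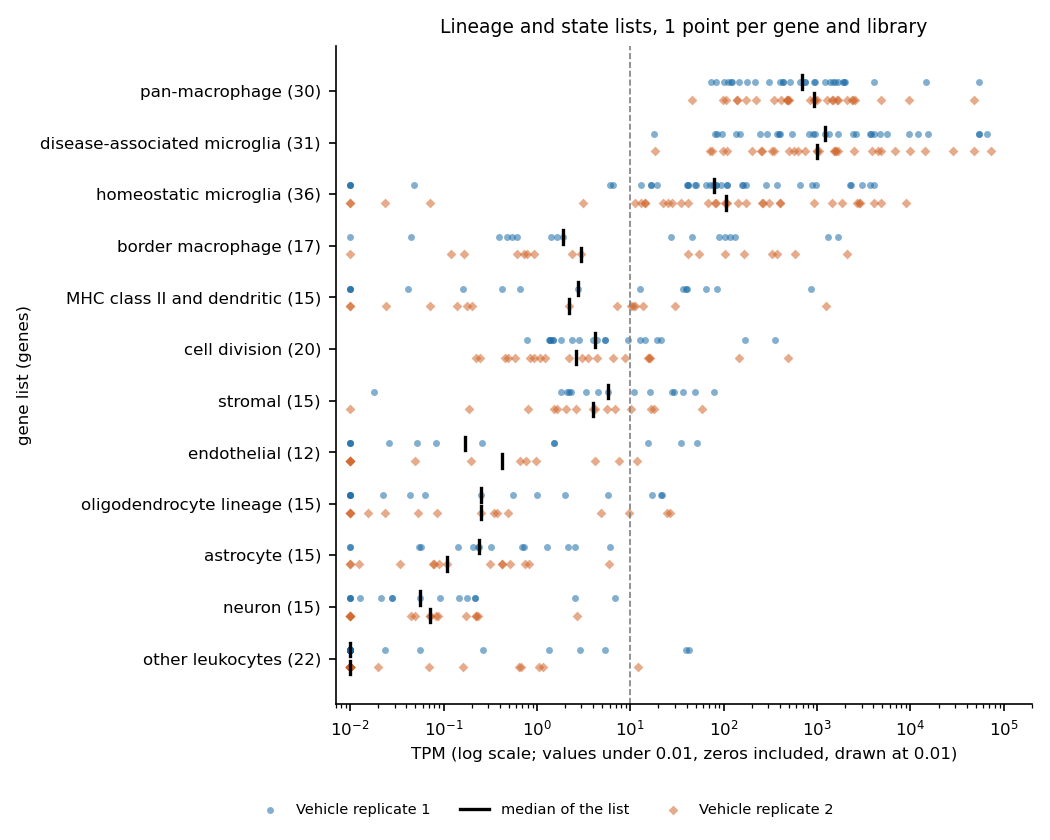
TPM (log scale) of the genes of 12 lineage and state lists, 1 point per gene, with circles for Vehicle replicate 1, diamonds for Vehicle replicate 2, black bars for the list's median in that library and a dashed line at 10 TPM. All pan-macrophage and disease-associated genes lie above the line in both libraries, the homeostatic list reaches from 0 to 8956 TPM, and most astrocyte, neuron and leukocyte markers lie below 1 TPM.

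Receptors were widely expressed, with 105 of 148 listed genes at 10 TPM or more in both libraries (70.9%, against 31.3% of all protein-coding genes), 43 at 100 TPM or more and 5 at 1000 TPM or more. They summed to 3.11% and 3.41% of all TPM. Of the 14 receptor genes for factors in the medium, 10 reached 10 TPM in both libraries (71.4%, against 31.3% of all protein-coding genes). For IL-34, Csf1r was the only abundant receptor. The alternative receptors were Sdc1, a syndecan, at 87.5 and 34.9 TPM, and Ptprz1, a phosphatase of glia, at 64 and 5 counts. For GM-CSF, the ligand-binding chain gene Csf2ra stood at 822.8 and 467.9 TPM, and the signalling chain gene Csf2rb at 482.8 and 433.2 TPM. Csf2rb2, also in the list, stood at 271.8 and 296.0 TPM. Csf2rb and Csf2rb2 are near-identical copies, so the split between them is uncertain. For TGFβ, the type I receptor gene Tgfbr1 stood at 174.4 and 109.0 TPM, the type II receptor gene Tgfbr2 at 51.0 and 157.4 TPM, and Acvrl1, a further type I receptor, at 47.9 and 43.5 TPM. Tgfbr1 was above Tgfbr2 in replicate 1 and below it in replicate 2. Tgfbr3, a co-receptor that helps to present TGFβ2, stood at 0.486 and 0.677 TPM, under the minimum of 1 TPM in both libraries. Receptors for insulin (Insr, 10.4 and 14.7 TPM), IGF1 (Igf1r, 8.61 and 10.8 TPM) and transferrin (Tfrc, 27.2 and 27.7 TPM) were moderate and even.

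Phagocytic and scavenger receptors were the most abundant receptor class, with a median of 157.4 TPM and 2.03% and 1.86% of all TPM. Of 35 genes, 30 reached 10 TPM in both libraries (85.7%, against 31.3% of all protein-coding genes). After Tyrobp, Gpnmb and Cd68 came Sirpa, the receptor of the don't-eat-me signal CD47, at 892.9 and 1680 TPM, and Itgb2, the β chain of complement receptor 3, at 1568 and 927.3 TPM. Fcer1g, the common γ chain of Fc receptors, stood at 953.1 and 1472 TPM, and the Fc receptor genes Fcgr3 (735.1 and 917.4 TPM) and Fcgr2b (328.9 and 265.0 TPM) were abundant, although they share sequence with each other. The scavenger receptor genes Msr1 (482.4 and 473.9 TPM), Marco (247.7 and 596.0 TPM) and Cd36 (269.9 and 135.0 TPM) were present in both libraries. The TAM family showed a clear order for its lowest member. Axl stood at 246.4 and 108.0 TPM, Mertk at 82.2 and 172.7 TPM and Tyro3 at 2.88 and 0.884 TPM, so Tyro3 was last in both libraries while Axl and Mertk changed places between them. The lowest of the class were Mrc2 (2.24 and 0.724 TPM), a collagen receptor, and Ager (1.07 and 1.24 TPM), the receptor of glycated proteins. Of 35 compared genes, 9 were more than 2 times higher in replicate 1 and 2 in replicate 2, against a background of 7.44% and 5.51%, so the count for replicate 2 was near the background.

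Pattern recognition receptors were nearly complete. Of 23 genes, 19 reached 10 TPM in both libraries (82.6%, against 31.3% of all protein-coding genes), with a median of 48.2 TPM. Cd14, the co-receptor that hands lipopolysaccharide to TLR4, stood at 1359 and 2402 TPM, and the C-type lectin gene Clec4d at 1215 and 1193 TPM. Among Toll-like receptors, Tlr2 (239.9 and 291.8 TPM), Tlr13 (220.2 and 207.0 TPM) and Tlr7 (202.7 and 223.2 TPM) were the highest, and their order was not the same in the libraries. Tlr4 itself stood at 43.8 and 52.7 TPM with its partner Ly96 at 37.1 and 57.9 TPM, so Cd14 was far above both in each library. Tlr9, a sensor of DNA, stood at 18.3 and 76.5 TPM, and Tlr1 at 31.8 and 126.6 TPM, although Tlr1 shares sequence with Tlr6 (21.4 and 33.0 TPM). At the other end, Tlr5, the flagellin sensor, had 0 and 4 counts, Tlr11 had 0 and 2, and Tlr12 had 13 and 27. None of 20 compared genes was more than 2 times higher in replicate 1, and 3 were in replicate 2, against 7.44% and 5.51% of all compared genes.

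Cytokine receptors were led by the type 2 TNF receptor gene Tnfrsf1b at 394.4 and 473.6 TPM. The type 1 receptor gene, Tnfrsf1a, stood at 158.4 and 219.4 TPM and was lower in both libraries. The interferon γ receptor chains Ifngr1 (75.8 and 362.2 TPM) and Ifngr2 (135.7 and 230.2 TPM) changed order between the libraries. Csf3r, the receptor of G-CSF, stood at 72.9 and 298.0 TPM, and the IL-10 receptor chain Il10ra at 89.7 and 262.8 TPM. The interleukin 1 receptors were low, with Il1r1 at 7.08 and 3.16 TPM, its partner Il1rap at 4.14 and 3.24 TPM and the decoy Il1r2 at 7 and 12 counts. Cd40, a co-stimulatory receptor that rises on activation, stood at 2.73 and 3.43 TPM. Il18r1 had no counts in either library. In all, 20 of 28 genes reached 10 TPM in both libraries (71.4%, against 31.3% of all protein-coding genes). Of 24 compared genes, 7 were more than 2 times higher in replicate 2 and 2 in replicate 1. The shares of all compared genes were 5.51% and 7.44%, so the count for replicate 1 was near the background.

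Receptors for nucleotides, lipids and chemoattractants ranged from abundant to undetected. P2ry6, the UDP receptor linked to phagocytosis, stood at 108.7 and 262.6 TPM, Ptafr, the receptor of platelet-activating factor, at 167.3 and 156.7 TPM, and the ATP-gated channels P2rx4 and P2rx7 at 111.2 and 174.3 TPM and at 55.3 and 85.5 TPM. P2ry12 was below all 4 in each library. The acid-sensing receptor gene Gpr65 (40.8 and 175.9 TPM) and Gpr34 (19.1 and 67.3 TPM), a lysophospholipid receptor, were more than 2 times higher in replicate 2. Of 24 compared nucleotide and lipid receptor genes, 6 were more than 2 times higher in replicate 2 and none in replicate 1. The shares of all compared genes were 5.51% and 7.44%. Cnr2, the peripheral cannabinoid receptor, stood at 38.6 and 27.5 TPM, while Cnr1, the neuronal one, had 1 and 0 counts and the adenosine receptor gene Adora1 had 2 and 2. Among chemoattractant receptors, C3ar1, the receptor of the complement fragment C3a, was the highest at 323.2 and 1024 TPM. C5ar1 (231.6 and 286.0 TPM), the chemokine receptor gene Ccr1 (310.2 and 189.6 TPM) and the formyl peptide receptor gene Fpr1 (147.4 and 247.9 TPM) followed, with Cx3cr1 second to C3ar1 by the mean TPM. Of the 20 genes, 10 reached 10 TPM in both libraries, and those of T cell and neutrophil chemotaxis, such as Ccr7 (1 and 5 counts) and Cxcr1 (3 and 1), were at or near the limit of detection.

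Transcription factors were spread over many genes of modest level. The file assigns 1451 protein-coding genes to a transcription factor family, and 343 of them (23.6%, against 31.3% of all protein-coding genes) reached 10 TPM in both libraries. At a minimum of 20 TPM the number was 198. Of the 1451, 24 reached 100 TPM in both libraries and none reached 1000 TPM, and together they held 1.82% and 2.12% of all TPM. Ybx1, a cold-shock domain protein that binds DNA and RNA, led at 766.7 and 683.4 TPM. Cebpb, a basic leucine zipper factor of myeloid cells, stood at 498.6 and 456.0 TPM, the stress factor gene Atf3 at 519.4 and 428.8 TPM, and Spi1, which encodes PU.1, at 426.2 and 492.7 TPM. These 3 were close enough that their order differed between the libraries. Nfe2l2, the NRF2 factor of the antioxidant response, came next by the mean at 428.8 and 368.4 TPM. The other leading factors were Jund (325.7 and 293.7 TPM), Klf6 (284.8 and 313.3 TPM), Id2 (312.2 and 282.4 TPM) and Atf4 (276.8 and 285.3 TPM), the factor of the integrated stress response. The C/EBP factor gene Cebpa was less even than these, at 291.3 and 167.7 TPM. Cers2, which is a ceramide synthase, stands in the list because the file's column assigns it to the homeobox family, and Hmga1 shares sequence with Hmga1b. By family, basic leucine zipper genes supplied 8 of the 24 genes at 100 TPM or more, interferon regulatory factors 3 and C/EBP genes 2, whereas the much larger zinc-finger family of 565 genes supplied 1.

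**Figure D4:**
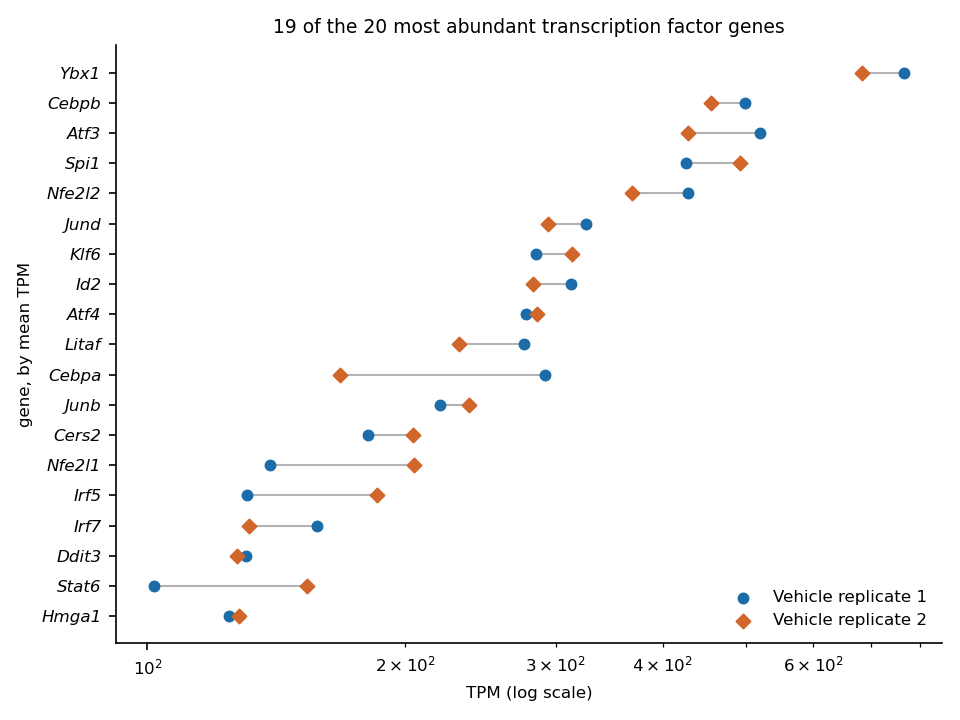
TPM (log scale) of 19 of the 20 genes with the highest mean TPM among those assigned to a transcription factor family, with a circle for Vehicle replicate 1, a diamond for Vehicle replicate 2 and a grey line between them. Ybx1 leads in both libraries, Cebpb, Atf3 and Spi1 overlap in range, and Cebpa (291.3 and 167.7 TPM) shows the widest gap of those drawn.

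Factors known from macrophages and microglia were largely present and those of other lineages were not. Of 42 macrophage and microglial factors, 34 reached 10 TPM in both libraries (81.0%, against 31.3% of all protein-coding genes), with a median of 59.9 TPM. The interferon regulatory factor gene Irf8, needed for microglial development, stood at 119.6 and 103.0 TPM, Runx1 at 36.8 and 49.8 TPM and Mef2c at 15.8 and 40.7 TPM. The lysosomal factors Mitf (58.4 and 59.2 TPM), Tfe3 (48.4 and 61.7 TPM), Tfec (25.2 and 30.5 TPM) and Tfeb (18.6 and 18.2 TPM) kept nearly the same levels in both libraries. Bhlhe40 (151.7 and 33.6 TPM) and Bhlhe41 (111.0 and 34.6 TPM), related repressors of macrophages, were both higher in replicate 1, whereas Maf (36.7 and 85.2 TPM), Fos (27.4 and 118.6 TPM) and Smad3 (5.70 and 20.7 TPM), which carries TGFβ signals, were higher in replicate 2. Spic, a factor of red pulp macrophages, had 7 counts in replicate 1 and 331 in replicate 2. The lowest of the list by the mean was Nr1h3, the sterol sensor LXRα, at 2.76 and 3.39 TPM, while its relative Nr1h2, LXRβ, stood at 59.1 and 67.8 TPM. Spic was lower than Nr1h3 in replicate 1 (0.149 TPM) and Klf2 was lower in replicate 2 (2.92 TPM). None of the 21 factors of other lineages reached 1 TPM in both libraries. Among them Neurod1, Neurod6, Gata1 and Sox17 had no counts, and the highest by the mean, Twist1, a factor of mesenchyme, stood at 0.852 and 0.742 TPM. In replicate 1 alone Gata3, a factor of T cells, was higher (1.31 and 0.182 TPM), as were Foxc1 (1.06 and 0.276 TPM) and Foxd1 (1.05 and 0.207 TPM).

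Secreted proteins held 22.2% and 18.2% of all TPM, and 92 of 199 listed genes reached 10 TPM in both libraries (46.2%, against 31.3%). Most of this came from Lyz2, Spp1, Apoe and the lysosomal proteases, which are secreted in part. The chemokine list, with 12 of 34 genes at 10 TPM or more, was close to the share of all protein-coding genes. However, 8 of the 34 reached 100 TPM, against 4.70% of all protein-coding genes. Ccl6 (2400 and 1533 TPM), Ccl9 (1728 and 982.9 TPM), Pf4 and Ccl3 (949.4 and 845.5 TPM) were abundant in both libraries. Ccl5, which attracts T cells and monocytes, was uneven at 430.1 and 3056 TPM, 6.56 times higher in replicate 2. Ccl2, the ligand of CCR2, stood at 29.3 and 58.1 TPM, and Cxcl10, an interferon-induced chemokine, at 7.61 and 13.9 TPM. Ccl17, Ccl19 and Xcl1 had no counts, and Ccl20 had 0 and 1. Ccl6 and Ccl9 were thus well above Ccl2 and Cxcl10 in both libraries, whereas Ccl5 was below them in replicate 1 and above them in replicate 2.

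Cytokine genes ranged from abundant to undetected. Of 42 genes, 9 stood at 10 TPM or more in both libraries (21.4%, against 31.3% of all protein-coding genes), and 16 had 3 counts or fewer in both, as had 8230 of the 22046 protein-coding genes, a similar share. Il1b, the pro-inflammatory interleukin 1β, showed the largest difference between the libraries of the 500 most abundant genes, at 107.9 TPM in replicate 1 and 1803 TPM in replicate 2, 15.4 times higher after TMM. Its receptor antagonist gene Il1rn went the other way at 347.4 and 104.7 TPM, and Il1a stood at 80.6 and 118.8 TPM. Tnf (86.9 and 69.6 TPM), the migration inhibitory factor gene Mif (252.5 and 245.7 TPM) and Csf1 (134.4 and 71.1 TPM), a ligand of the Csf1r product, were present in both libraries. Il6 had 22 counts in replicate 1 and 269 in replicate 2, and Il10 had 0 and 9. The genes of 3 factors added to the medium were low. Il34, at 4 and 2 counts, and Csf2, which encodes GM-CSF, at 0 in both, were at or near the limit of detection. Tgfb2 was above it, at 35 and 25 counts (0.493 and 0.348 TPM). Trf, which encodes transferrin, another component of the medium, stood at 40.6 and 61.1 TPM. Tgfb1 stood at 156.5 and 218.8 TPM. Ifng, Il4 and Il17a, products of lymphocytes, had no more than 1 count.

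Among growth factors, 12 of 37 genes reached 10 TPM in both libraries (32.4%), close to the 31.3% of all protein-coding genes. Grn, the progranulin of lysosomes, stood at 1295 and 1456 TPM and Igf1, which microglia supply to neurons and oligodendrocytes, at 148.5 and 248.5 TPM. The platelet-derived factor Pdgfb stood at 63.7 and 79.8 TPM and Pdgfa at 48.9 and 19.2 TPM. Inhba, the activin chain, was uneven at 60.8 and 4.24 TPM. Bdnf, a neurotrophin, had 20 and 8 counts, Gdnf had 9 and 9 and Fgf1 had 5 and 3, so the levels of these neurotrophic genes rest on few counts.

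Complement genes ranged from abundant to undetected. Of 18 genes, 6 reached 10 TPM in both libraries (33.3%), close to the 31.3% of all protein-coding genes, but 5 reached 100 TPM (against 4.70%). Counts of 3 or fewer in both libraries were found for 4, as for 8230 of the 22046 protein-coding genes. The 3 C1q chain genes summed to 0.557% of all TPM in replicate 1 and 1.59% in replicate 2, and C1qc stood at 874.4 and 2823 TPM. All 3 chains were more than 2 times higher in replicate 2, with a median log2 ratio of 1.58. Cfp, which encodes properdin and stabilises the alternative pathway, stood at 337.9 and 1351 TPM and moved the same way, and C3, the central component, stood at 512.1 and 749.9 TPM. The remaining components of the classical and alternative pathways were low, with C1s1 at 1.07 and 0.232 TPM, C2 at 5.42 and 6.41 TPM, Cfb at 6.07 and 0.314 TPM and C4b at 0.659 and 0.141 TPM. Cfd, C6 and C7 had no counts and Hc, the gene of C5, had 1 and 0. Transcripts of C1q, properdin and C3 were therefore abundant in both libraries, beside terminal components that were not detectable at this depth.

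Proteases and their inhibitors outside the cathepsins included Mmp13, a collagenase, at 1613 and 252.3 TPM, and Mmp8, another collagenase, at 397.0 and 50.6 TPM. Plau, the urokinase activator of plasminogen, stood at 1200 and 539.0 TPM, and Mmp9, a gelatinase, at 188.2 and 166.6 TPM. Mmp3, a stromelysin, was the reverse at 8.43 and 36.9 TPM. The metalloprotease inhibitor Timp2 (532.1 and 561.0 TPM) was even and was above Timp1 (98.8 and 53.3 TPM) and Timp3 (5.79 and 1.79 TPM) in both libraries. Of 38 genes, 30 reached 10 TPM in both libraries (78.9%, against 31.3% of all protein-coding genes). Of 35 compared genes, 11 were more than 2 times higher in replicate 1 and 3 in replicate 2, where 7.44% and 5.51% of all compared genes were. Among the other secreted proteins, Lgals1 (1513 and 1275 TPM), the acute phase gene Saa3 (817.0 and 783.5 TPM) and the cholesterol-binding gene Npc2 (1131 and 867.6 TPM) were even. Anxa1, an anti-inflammatory annexin, was higher in replicate 1 (1714 and 488.1 TPM), as was the matrix gene Fn1 (552.2 and 137.2 TPM), and the phospholipid transfer gene Pltp was higher in replicate 2 (41.6 and 395.9 TPM). Chil3, a marker of alternatively activated macrophages, had 26 and 0 counts and Retnla, another, had none.

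**Figure D5:**
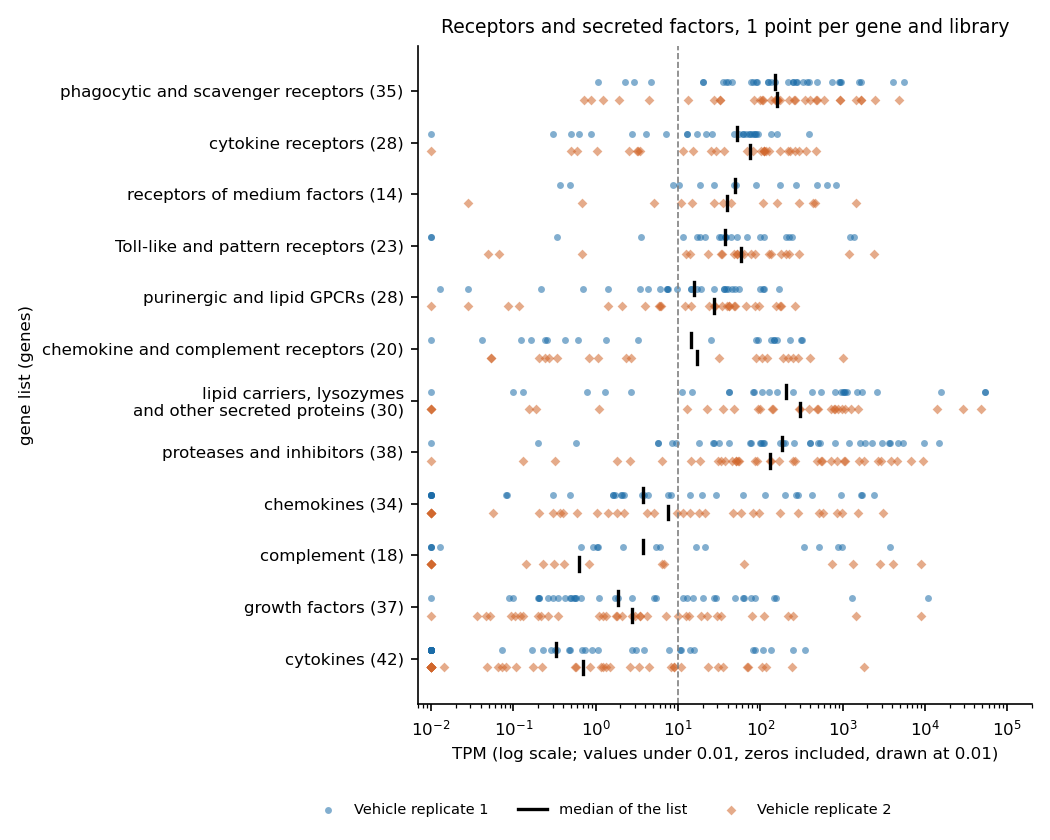
TPM (log scale) of the genes of 6 receptor lists and 6 secreted factor lists, 1 point per gene, with circles for Vehicle replicate 1, diamonds for Vehicle replicate 2, black bars for the list's median in that library and a dashed line at 10 TPM. Phagocytic receptors, lipid carriers and proteases have medians above 100 TPM in both libraries, and the cytokine list has a median of 0.331 and 0.707 TPM.

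Genes of iron and cholesterol handling were expressed in both libraries. All 12 iron genes reached 10 TPM in both libraries, against 31.3% of all protein-coding genes. None of the 12 differed by more than 2 times, where 12.9% of all compared genes did. With 12 genes this is too few to call the list more even than others. Below the ferritin chains came Hmox1, which opens the haem ring (1055 and 1063 TPM), and Slc11a1, an iron transporter of the phagosome (219.7 and 398.7 TPM). The exporter gene Slc40a1 stood at 31.1 and 53.8 TPM and the importer gene Tfrc at 27.2 and 27.7 TPM, the latter the lowest of the list. Of 22 cholesterol genes, 16 reached 10 TPM in both libraries (72.7%, against 31.3% of all protein-coding genes). Several genes of transport and storage were above the named genes of synthesis. The efflux transporter genes Abca1 (235.9 and 738.4 TPM) and Abcg1 (200.4 and 297.1 TPM) and the esterifying enzyme gene Soat1 (148.1 and 150.2 TPM) were well above the synthesis gene Sqle (8.64 and 2.38 TPM). Replicate 1 held more of the synthesis gene Hmgcs1 (62.6 and 34.7 TPM), and replicate 2 more of Abca1 and Apoe.

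Genes with a high mean TPM also differed between the libraries. Of the 500 genes with the highest mean TPM, 71 (14.2%) differed by more than 2 times. The share was 12.9% of all compared genes and 8.34% at a mean of 10 TPM or more. A high level in 1 library can bring a gene into these 500. Clec4a1, for example, had rank 2352 in replicate 1 and rank 173 in replicate 2. The 5 with the largest ratio towards replicate 2 were Il1b, Clec4a1 (51.0 and 612.9 TPM), Clec4a3 (79.6 and 747.1 TPM), Fcrls and Ccl5, of which Clec4a1 and Clec4a3 encode related C-type lectins. The 5 towards replicate 1 were Mfge8 (1386 and 161.6 TPM), which bridges dying cells to integrins, Mmp13, S100a11 (1806 and 368.2 TPM), Tmsb10 (1638 and 362.9 TPM) and Fn1. Cytosolic ribosomal protein genes differed less often. The 84 genes summed to 4.46% and 5.17% of all TPM. Of 82 compared, 3 were more than 2 times higher in replicate 1 and 1 in replicate 2, against 7.44% and 5.51% of all compared genes. The 13 mitochondrially encoded protein genes summed to 1.54% and 1.68%. Of these 13, 1 was more than 2 times higher in replicate 1 and 1 in replicate 2, which is near that background.

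Outside the protein-coding class, Gm23935 stood at 34486 and 16012 TPM. It is classed in the file as a miRNA gene of 57 bases on chromosome 16 from 11144125 to 11144181, so that 24087 and 11331 counts become a very high TPM through division by so short a length. Gm42418, a lincRNA class gene on chromosome 17 that RefSeq lists as a ribosomal RNA pseudogene, stood at 613.5 and 3904 TPM, 5.87 times higher in replicate 2 after TMM. Processed pseudogenes, such as the ribosomal protein copy Rpl34-ps1 (1480 and 2000 TPM), held 3.62% and 3.64% of all TPM.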

How the data were processed

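RNA of vehicle-treated primary microglia was measured in 2 libraries. The authors deposited raw counts per gene, whole reads without normalisation, in 1 table per replicate, after filtering reads for adapters and low quality and aligning them with HISAT2 to GRCm38.p6. The counting program, the annotation and the treatment of reads with several matches are not given in the sources used here. The replicate number of each table was taken from the metadata sheet in the supplement. The other 2 per-sample columns (EGCG) were not used.

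Both tables list the same 54532 Ensembl genes, 22046 of which are protein-coding, and these were used. Counts were divided by the file's gene length and scaled to TPM with pandas 2.3.3. For 98.0% of the 54495 genes found in GENCODE release 21, the length in the file equals that of the merged exons. Ratios between libraries used edgeR 4.0.16 TMM factors in R 4.3.3, with counts raised to a floor of 3, and were compared for protein-coding genes at a mean of 1 TPM or more. DESeq2 1.42.0 size factors were an alternative. No statistical test was made. The scaling was tested on simulated counts. Genes with a near-identical copy were searched with BLAST 2.17.0 (at least 90% identity over 200 bases of a transcript).

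The 28 gene lists held 612 symbols, of which 610 matched a protein-coding gene. Members and lists were chosen with earlier results of these data known. Genes named are the 25 most abundant, the 6 markers, the 20 most abundant factors, the 5 highest, the 2 lowest and the undetected of each list (all of lists of up to 12), the receptors of medium factors, and the 5 most unequal in each direction among the top 500. Other list members named were chosen after their values were seen. Some of the genes that this rule names are not reported here.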

Additional observations from a re-analysis of the deposited data

Results flagged for a closer look

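The tables also hold loci that were assembled from the reads outside the annotated genes, separately in each table, and these took no part in the profile. In Vehicle replicate 1, 351 of 697 such loci had more than 3 counts, and in Vehicle replicate 2, 283 of 329 did, which is above the limit that a count of 0 allows. They held 0.156% and 0.117% of all counts. Among the highest were a locus on chromosome 3 that begins at 5860333 in both tables, with 13662 counts in replicate 1 and 2979 in replicate 2, and a locus on chromosome 11 that begins at 86811744 in the first table and at 86811751 in the other, with 7658 and 7479 counts. No group held enough libraries to look for a sample far from the others.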

How the results depend on the processing

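The numbers of detected genes, homeostatic genes, receptors and secreted factors stayed within 1.5 times of their values under every alternative run (the minimum TPM halved and doubled, CPM without gene length, a total over nuclear protein-coding genes, the longest transcript as length, and each library left out). The number of transcription factors did so except at the doubled minimum, where it was 198 against 343. Ranks of single genes moved more often. Of the ranks of 631 genes, 307 moved by more than 1 SD between the libraries in CPM, 169 with the longest transcript as length, 163 without replicate 1 and 102 without replicate 2, and 19 of 629 did with the total over nuclear protein-coding genes. The share of the 10 most abundant genes (26.1% of TPM) was 13.5% in CPM and 20.7% with the longest transcript as length, and that of the leading 100 (44.0%) was 28.1% and 39.6%. The summed markers of other cells (0.0410%) were 0.0966% in CPM, and without either library they ranged from 0.0255% to 0.0564%. Spearman's rho (0.945) was 0.966 with no filter on low values and 0.900 at a mean of 10 TPM or more, where 8.34% of genes differed by more than 2 times in place of 12.9%. That share was 18.0% with no filter and 15.6% over all gene classes. Of the genes more than 2 times apart, 42.5% were higher in replicate 2, against 32.5% with no filter, 52.4% at a mean of 10 TPM or more, 43.7% with DESeq2 size factors and 44.7% with total counts. The cause of these shifts was not tested. No paired analysis was possible because the report covers 1 group and no comparison between groups was made. With 2 libraries an SD is itself imprecise, levels under about 1 TPM rest on few counts, and TPM of very short genes, such as Gm23935, and of genes with near-identical copies depend on how reads were counted.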
